A study of Caenorhabditis elegans with 27 samples.

Results

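The genes described here belong to the body wall muscle and were followed through the auxin series. They were taken by sequence name, 5 as giant or long and 5 as shorter, and make up 10 of the 20390 genes listed for each library. All 10 were among the 14271 genes tested. The giant or long genes are unc-22 (ZK617.1), ttn-1 (W06H8.8), unc-89 (C09D1.1), unc-52 (ZC101.2) and deb-1 (ZC477.9). The shorter genes are unc-54 (F11C3.3), myo-3 (K12F2.1), unc-15 (F07A5.7), unc-27 (ZK721.2) and act-4 (M03F4.2).

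The study used whole Caenorhabditis elegans in which auxin triggers the degradation of a chosen protein. Strain AM05 (top-1::degron::GFP) carries the tag on topoisomerase I, SS01A (top-2::degron::GFP) on topoisomerase II and AM01 (dpy-27::degron::GFP) on DPY-27, a subunit of the condensin that acts on the X chromosomes. CA1200 has no tagged target in its label and is the control, and the strains are called TOP-1, TOP-2, DPY-27 and CA1200 below. Such strains carry the plant F-box protein TIR1, which hands degron-tagged proteins to the proteasome when auxin is present. CA1200 is known as a strain whose TIR1 transgene ends in the 3′ end of unc-54, so reads of that stretch cannot be told apart from those of unc-54 itself. Plates held 1 mM indole-3-acetic acid. TOP-1, TOP-2 and CA1200 have libraries from 0 (no auxin), 30, 60 and 120 min, and DPY-27 from 120 min and no auxin. Worms were larvae at L2/L3, except for 2 mixed-stage libraries of DPY-27, 1 at each time, called its replicate 2. This gave 27 poly(A) libraries in 14 groups of 2, with a single library for CA1200 at 60 min. The labels leave unclear at which time the worms without auxin were collected. The degron acts on the protein, so no transcript level here measures depletion of the target, and the tissue that drives TIR1 is not given in the labels.

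Body wall muscle of the worm is built from sarcomeres of thick and thin filaments. Thick filaments hold myosin heavy chains around a paramyosin core, and thin filaments hold actin with its troponin and tropomyosin regulators. Giant proteins of the titin family include twitchin of the A band and the obscurin homolog of the M line. Dense bodies, the equivalent of Z discs, tie thin filaments to the cell membrane and to the basement membrane beyond it. Topoisomerases I and II remove the supercoils that a transcribing polymerase leaves ahead of and behind itself. The members are genes of the body wall muscle of very different length. In whole worms, RNA of a member from other tissues cannot be set apart from that of body wall muscle.

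Levels are scaled TPM, a level per transcript length and library size (TPM) after scaling between libraries by median ratios, and changes are differences of log2(scaled TPM + 1) with their standard error (SE) from limma. The libraries held an estimated 5.73 to 21.3 M fragments. The replicate 1 series of TOP-2 (4 libraries) and of DPY-27 (2 libraries) stood apart, with a median TPM of 5.10 to 6.83 against 1.27 to 2.53 in the other 21. Summed levels of the 7 pharyngeal muscle markers were 375 to 533 scaled TPM in those 6 libraries and 7.96 to 61.8 in the others. All 5 body wall muscle markers, of which 3 are members, were above 0 in all 27 libraries. In bulk RNA of whole worms, fewer cells of a type and less RNA per cell cannot be told apart.

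Spans are those of the deposited files, whose build the labels and headers do not name. The titin-like gene ttn-1 spans 81719 bp (chromosome V, 6120891 to 6202609), and its longest protein in the WBcel235 annotation has 15188 residues. The obscurin homolog unc-89, an M-line protein, spans 55219 bp (I, 4035745 to 4090963). Twitchin, the A-band kinase encoded by unc-22, spans 38301 bp (IV, 11972684 to 12010984) and has 7158 residues in that annotation. The perlecan gene unc-52, which encodes a heparan sulfate proteoglycan of the basement membrane, spans 19618 bp in the files (II, 14647251 to 14666868) but 37136 bp in the annotation. The vinculin gene deb-1, whose product sits in dense bodies, spans 9148 bp (IV, 7085206 to 7094353).

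Among the shorter genes, unc-54 encodes myosin heavy chain B, the main body wall myosin, and spans 11050 bp (I, 14852480 to 14863529). Myosin heavy chain A is encoded by myo-3 and spans 9872 bp (V, 12226796 to 12236667). Both are thus longer than deb-1 in the files, whereas in the annotation their spans are 7582 and 7528 bp, below the 9052 bp of deb-1. Paramyosin, unc-15, spans 6595 bp (I, 7376600 to 7383194), actin, act-4, 3868 bp (X, 4960521 to 4964388) and troponin I, unc-27, 1169 bp (X, 8789400 to 8790568). By the files 7 of the members, the 5 giant or long ones with unc-54 and myo-3, were among the 1428 longest genes tested, of at least 7742 bp. The value of act-4 is uncertain because it shares reads with the near-identical act-1, act-2 and act-3. Other genes, of 1051 to 5722 bp, lie in or across the end of unc-22, ttn-1, unc-89, unc-54 and act-4 in the files. Whether reads were assigned by strand is not stated.

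On a per-length scale the members covered a wide range of levels. Averaged over the 27 libraries, act-4 stood at 1926 scaled TPM, unc-54 at 733, unc-27 at 719 and unc-15 at 601. Then came deb-1 at 78.4, myo-3 at 70.7 and unc-52 at 57.5, followed by unc-89 at 20.6, unc-22 at 18.8 and ttn-1 at 5.37. Neighbours in this order overlapped over the libraries, except across the step between unc-15 (lowest 243 scaled TPM) and deb-1 (highest 154). The authors' deposited tables give a mean of 1620 to 5264 normalized counts for ttn-1, the lowest member.

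**Figure D1:**
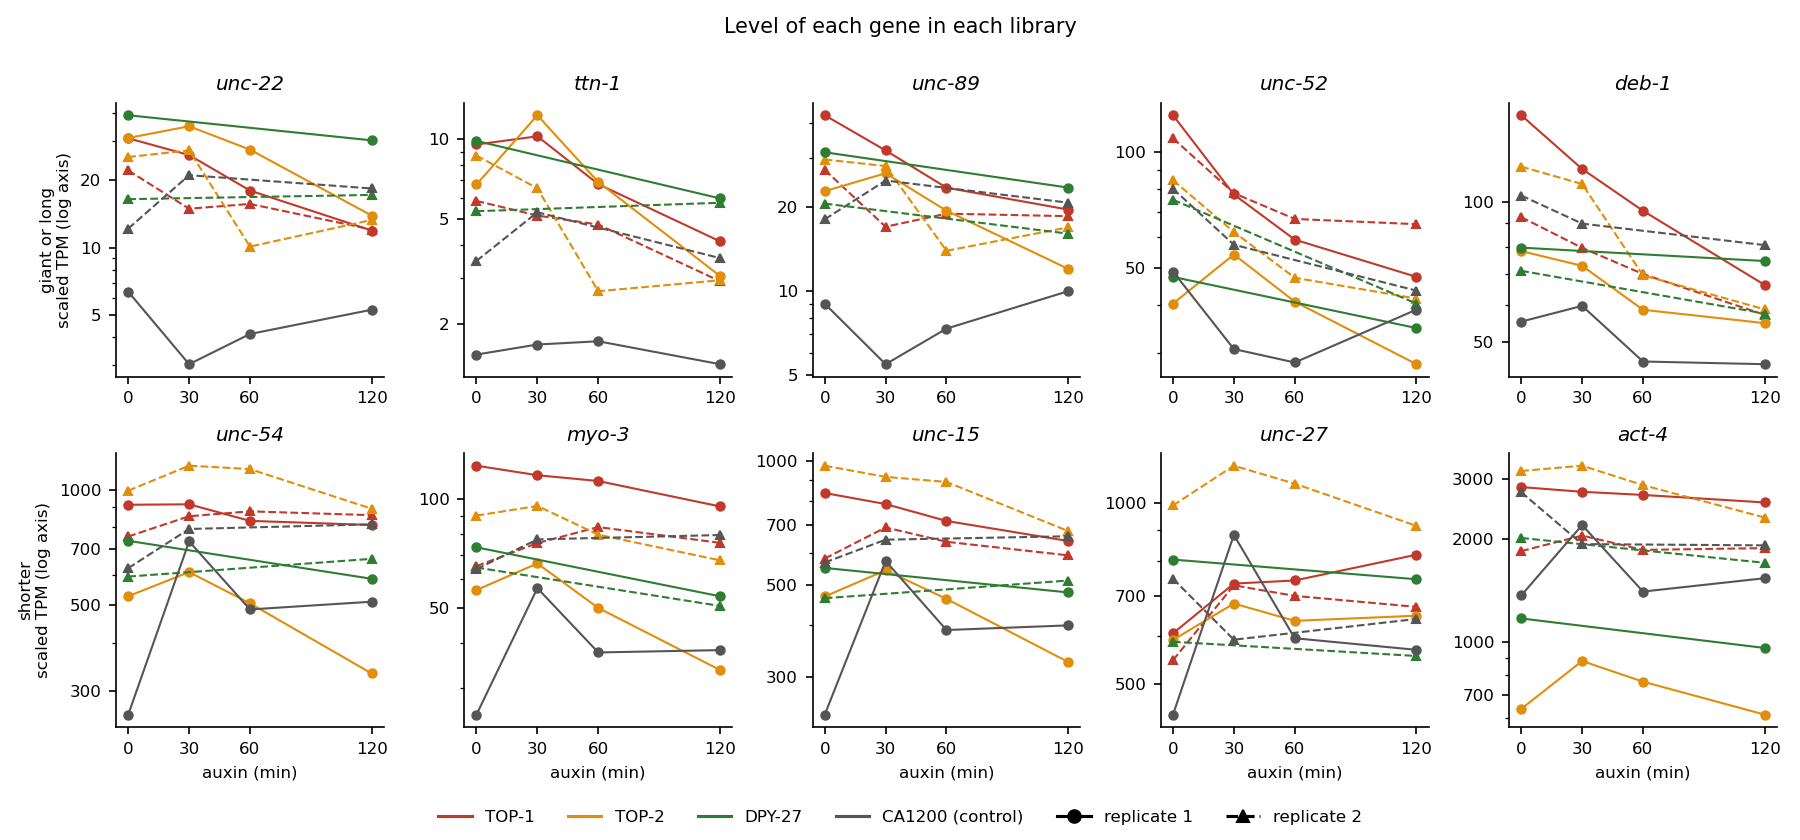
Scaled TPM of each gene (vertical log axes) against minutes of auxin, with 1 line for each replicate series of a strain: circles and solid lines for replicate 1, triangles and dashed lines for replicate 2. In the TOP-1 strain both series of all 5 giant or long genes (top row) were lower at 120 min than without auxin, and replicate 1 of CA1200 lay lowest for unc-22, ttn-1 and unc-89 at every time.

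In the TOP-1 strain all 5 giant or long genes were lower after 120 min of auxin than without it in both replicate series. The shorter genes as a class had median changes of -0.17 in replicate 1 and 0.18 in replicate 2. The median change was -0.94 for the giant or long genes and -0.06 for the shorter ones, against 0.04 over all genes tested. No member passed limma with Benjamini-Hochberg adjustment over all genes at an adjusted p of 0.05, where 1.94% of genes tested were called in either direction. With the replicate number kept as a block, 4 of the 5 giant or long genes and none of the 5 shorter ones passed, all 4 lower, where 11.5% of genes tested were called lower.

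The level of unc-22 in the TOP-1 strain was 30.8 and 22.2 scaled TPM without auxin, 25.9 and 14.95 after 30 min, 18.0 and 15.7 after 60 min, and 11.9 and 12.1 after 120 min (replicates 1 and 2). Its 120 min values lay below both values without auxin, a log2 change of -1.06 ± 0.67 (SE; limma adjusted p = 0.565, or 0.0437 with the replicate block). For ttn-1 the levels were 9.57 and 5.86, then 10.3 and 5.15, 6.78 and 4.77, and 4.12 and 2.91 scaled TPM at 120 min. Little of that difference was present at 30 min, and the 120 min change was -0.93 ± 0.51 (limma adjusted p = 0.478, or 0.0394 with the block). The M-line gene unc-89 stood at 42.7 and 27.2, then 31.9 and 17.0, 23.5 and 18.96, and 19.6 and 18.6 scaled TPM. Both series ended near the same level from different starts, and its change of -0.81 ± 0.53 passed in neither fit (limma adjusted p = 0.596, and 0.0513 with the block).

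The basement membrane gene unc-52 was already lower at the first time point in the TOP-1 strain. Its levels were 125 and 108 scaled TPM without auxin, 77.5 and 78.1 after 30 min, 59.2 and 67.0 after 60 min, and 47.4 and 64.9 after 120 min. The change was -0.57 at 30 min, -0.87 at 60 min and -1.05 ± 0.37 at 120 min (limma adjusted p = 0.181 at 120 min, or 0.00726 with the block). The dense-body gene deb-1 went through 154 and 92.7, 118 and 79.7, 95.7 and 70.0, and 66.3 and 57.2 scaled TPM in the same order. Its values at 120 min lay below both values without auxin, with a change of -0.94 ± 0.40 (limma adjusted p = 0.291, or 0.00198 with the block). At 60 min, where 0.603% of genes were called without the block, no member passed. With the block unc-52 (limma adjusted p = 0.0264) and deb-1 (0.0472) passed there, both lower, where 8.07% of genes were called lower. At 30 min no member passed with the block (4.89% of genes called) or without it (0.00701%).

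The 5 shorter genes showed no such decline in the TOP-1 strain. The myosin gene unc-54 stood at 915 and 756 scaled TPM without auxin, 917 and 854 after 30 min, 830.4 and 879 after 60 min, and 810.1 and 859 after 120 min. Its 120 min change was 0.005 ± 0.58, with replicate 1 slightly lower and replicate 2 slightly higher. The second myosin gene, myo-3, stood at 124 and 65.2, then 116 and 75.6, 112.2 and 83.7, and 95.4 and 75.7 scaled TPM, a change of -0.08 ± 0.51. Here too the series moved apart, with changes of -0.37 in replicate 1 and 0.21 in replicate 2.

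Paramyosin, unc-15, was at 641 and 591 scaled TPM after 120 min in the TOP-1 strain, against 838 and 581 without auxin (change -0.18 ± 0.54). The troponin gene unc-27 was at 819.7 and 671 scaled TPM, against 607 and 548, and had the highest change of the 10 members, 0.36 ± 0.44. It was higher in both series at all 3 times, but did not pass (limma adjusted p = 0.856, and 0.2999 with the block). The actin gene act-4 was at 2562 and 1883 scaled TPM, against 2842 and 1846, a change of -0.06 ± 0.89. Its SE was the largest of the members, and its TOP-2 libraries without auxin stood as far apart as 637 and 3168 scaled TPM.

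**Figure D2:**
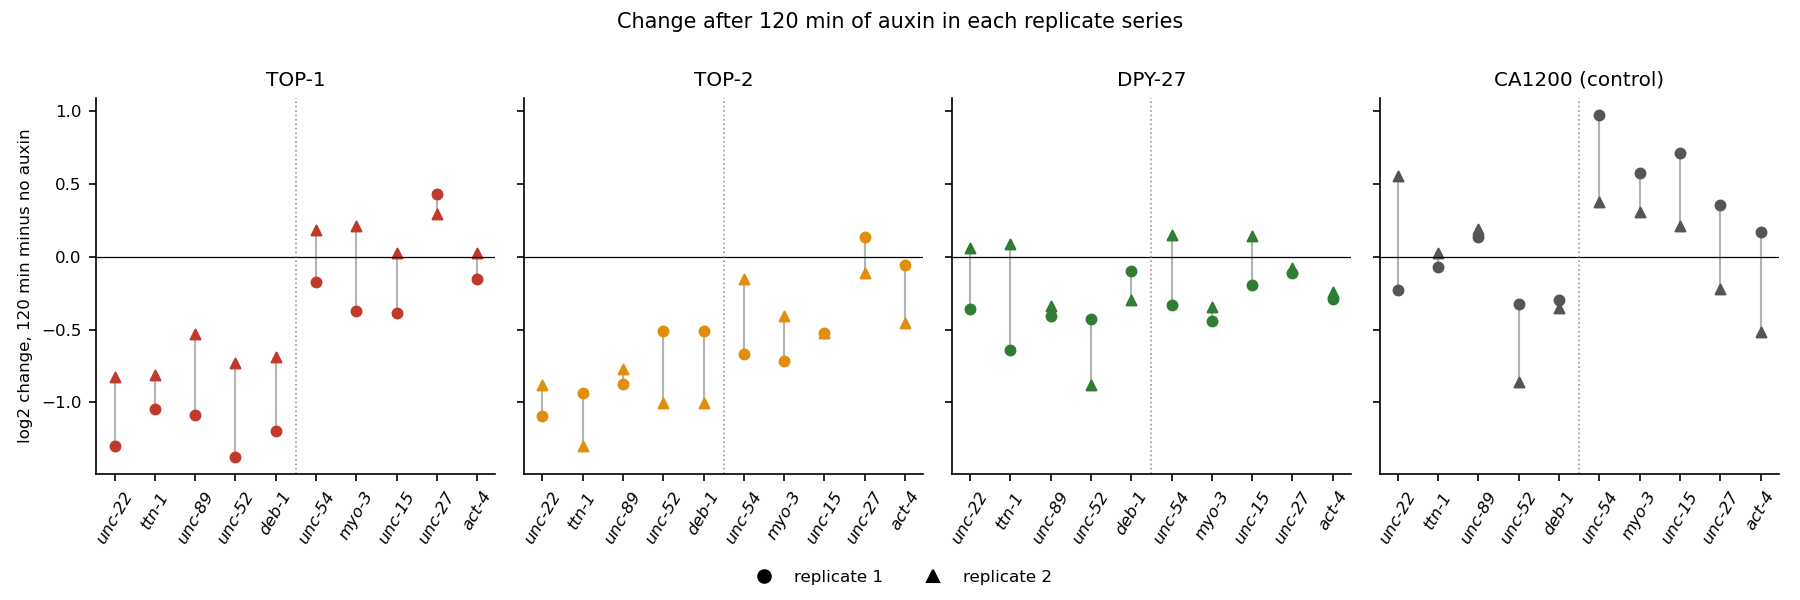
Log2 change of scaled TPM + 1 between 120 min and no auxin for the 5 giant or long genes (left of the dotted line) and the 5 shorter genes (right of it) in each strain; circles are replicate 1, triangles replicate 2. The giant or long genes lie between -1.38 and -0.53 in the TOP-1 strain and between -1.30 and -0.51 in the TOP-2 strain, and reach above 0 in the DPY-27 and CA1200 strains.

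Other tissue markers differed between the same TOP-1 libraries. The 7 intestinal markers summed to 861 and 545 scaled TPM after 120 min, against 1671 and 812 without auxin, and the 6 hypodermal markers to 254 and 411, against 378 and 880.5. The 8 neuronal markers summed to 807 and 661, against 733 and 608, the 6 germline markers to 15.8 and 71.5, against 25.7 and 79.3, and the 7 pharyngeal muscle markers to 14.1 and 61.8, against 49.9 and 38.8. None of these markers was at 0 in the TOP-1 libraries at those times. Sums weight the highest markers, and mean log2(scaled TPM + 1) did not always move the same way. For the intestinal markers it was 5.14 and 5.075 after 120 min, against 5.48 and 4.96, so replicate 2 was higher. For the neuronal markers it was 5.45 and 5.08, against 5.52 and 5.20, lower in both. Germline replicate 2 was at 3.302, against 3.288, and the hypodermal markers at 5.08 and 5.68, against 5.41 and 6.16. The body wall muscle markers, which hold unc-54, myo-3 and unc-15, summed to 1579 and 1559, against 1902 and 1418. The part of worm makeup in the changes of the members was not tested.

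A ratio of levels within a library does not depend on the scaling between libraries. In the TOP-1 strain unc-22 stood at 33.7 and 29.3 per 1000 of unc-54 without auxin, 28.3 and 17.5 after 30 min, 21.7 and 17.9 after 60 min, and 14.7 and 14.1 after 120 min. The mean log2(scaled TPM + 1) of the giant or long genes minus that of the shorter genes, nearly free of the scaling, was -3.83 and -3.86 without auxin, -4.16 and -4.50 after 30 min, -4.52 and -4.54 after 60 min, and -4.90 and -4.72 after 120 min. Each step was downward in both series. In the TOP-2 strain the difference was -4.03 and -5.01 after 120 min, against -3.62 and -4.34 without auxin, with a low of -5.37 in replicate 2 at 60 min. In DPY-27 it was -3.91 and -4.33 at 120 min, against -3.80 and -4.13 without auxin.

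CA1200 did not hold steady in this ratio. The giant-minus-shorter difference was -4.18 and -4.45 without auxin, -5.68 and -4.24 after 30 min, -5.04 (1 library) after 60 min, and -4.89 and -4.57 after 120 min. In replicate 1 of the control the values at 30 and 60 min lay below both TOP-1 values at 120 min, and in replicate 2 none did.

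**Figure D3:**
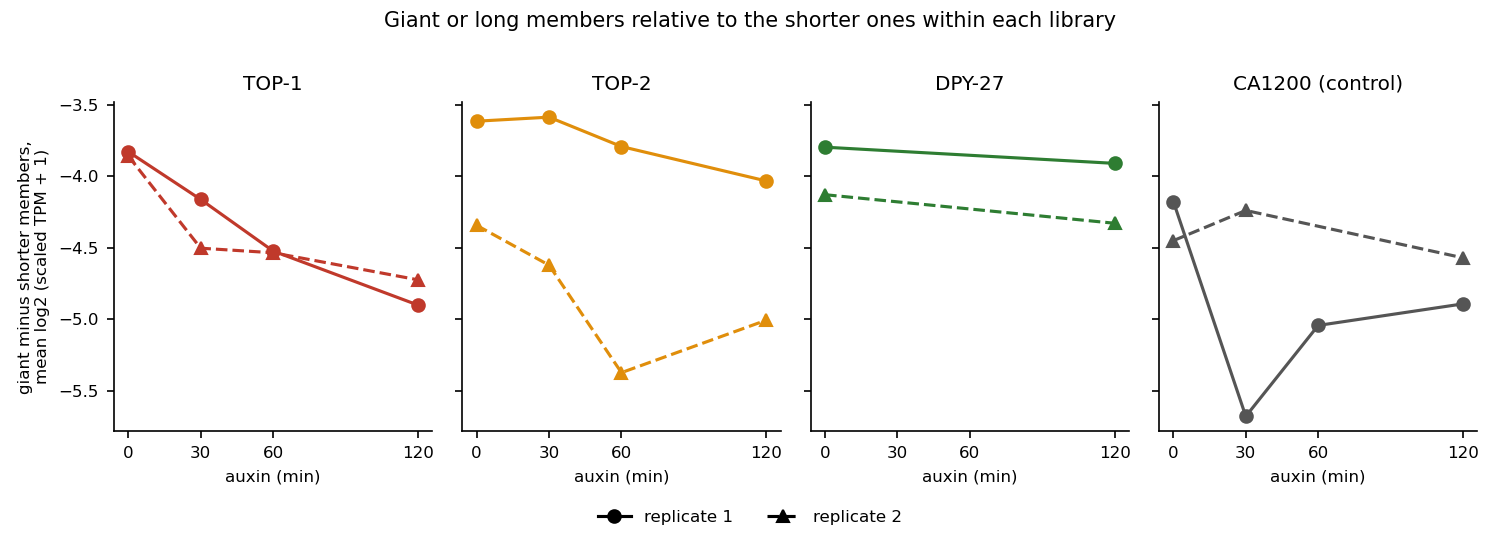
Mean log2(scaled TPM + 1) of the giant or long genes minus that of the shorter genes within each library, against minutes of auxin; circles and solid lines are replicate 1, triangles and dashed lines replicate 2. Both TOP-1 series step down at each time to -4.90 and -4.72, and CA1200 replicate 1 dips to -5.68 at 30 min while replicate 2 stays between -4.57 and -4.24.

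A pair of members of similar span and level, chosen after their values were seen, behaved unlike each other in the TOP-1 strain. The dense-body gene deb-1 (9148 bp, 78.4 scaled TPM on average) and the myosin gene myo-3 (9872 bp, 70.7) had 120 min changes of -0.94 and -0.08. Within libraries the ratio of deb-1 to myo-3 was 1.24 and 1.42 without auxin, 1.01 and 1.05 after 30 min, 0.853 and 0.837 after 60 min, and 0.695 and 0.756 after 120 min. In CA1200 the same ratio was 2.18 and 1.61, then 1.06 and 1.16, 1.21, and 1.17 and 1.02. The control ratio was therefore also lower with auxin than without it at all 3 times. At 120 min it was 1.63 and 0.868 in TOP-2, against 1.40 and 1.32 without auxin, and 1.39 and 1.14 in DPY-27, against 1.08 and 1.1002, so it was higher in both DPY-27 series and in TOP-2 replicate 1.

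Set beside all genes of like span, the giant genes lay within the bulk of their class in the TOP-1 strain. Of the 158 genes tested with a span over 20 kb, the median 120 min change was -0.76, and 34.2% changed more negatively than unc-22, 41.1% more than ttn-1 and 48.1% more than unc-89. Of the 708 genes of 10 to 20 kb, median -0.47, 17.9% lay below unc-52 and 79.5% below unc-54. By its annotated span of 37136 bp unc-52 would stand in the class over 20 kb. At 7582 bp in the annotation, unc-54 would stand in that of 5 to 10 kb. Of the 2045 genes of 5 to 10 kb, median -0.20, 10.8% lay below deb-1, 58.9% below myo-3 and 51.8% below unc-15. The span classes under 1 kb, 1 to 2 kb and 2 to 5 kb had medians of 0.20, 0.17 and 0.05.

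Within a span class the median change also differed with level. Among genes of 10 to 20 kb the median TOP-1 change was -0.49 at a mean of under 10 scaled TPM (348 genes) and -0.09 at over 200 (10 genes, unc-54 among them). Among genes over 20 kb it was -0.90 at under 10 (55 genes), -0.82 at 10 to 50 (85 genes) and -0.42 at 50 to 200 (17 genes). In the 5 to 10 kb class, which holds deb-1, myo-3 and unc-15, the order was another: -0.12 at under 10 (1078 genes), -0.30 at 10 to 50 (809 genes), -0.23 at 50 to 200 (136 genes) and -0.21 at over 200 (22 genes). The 2 to 5 kb class stood at 0.11 at under 10 and between -0.13 and -0.06 at the higher levels. The part of level in the contrast between giant and shorter muscle genes was not tested. Across the 10 members Spearman's correlation of span with the 120 min change was -0.61, and across all 14271 genes tested it was -0.30, both as descriptions over genes that share their libraries.

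**Figure D4:**
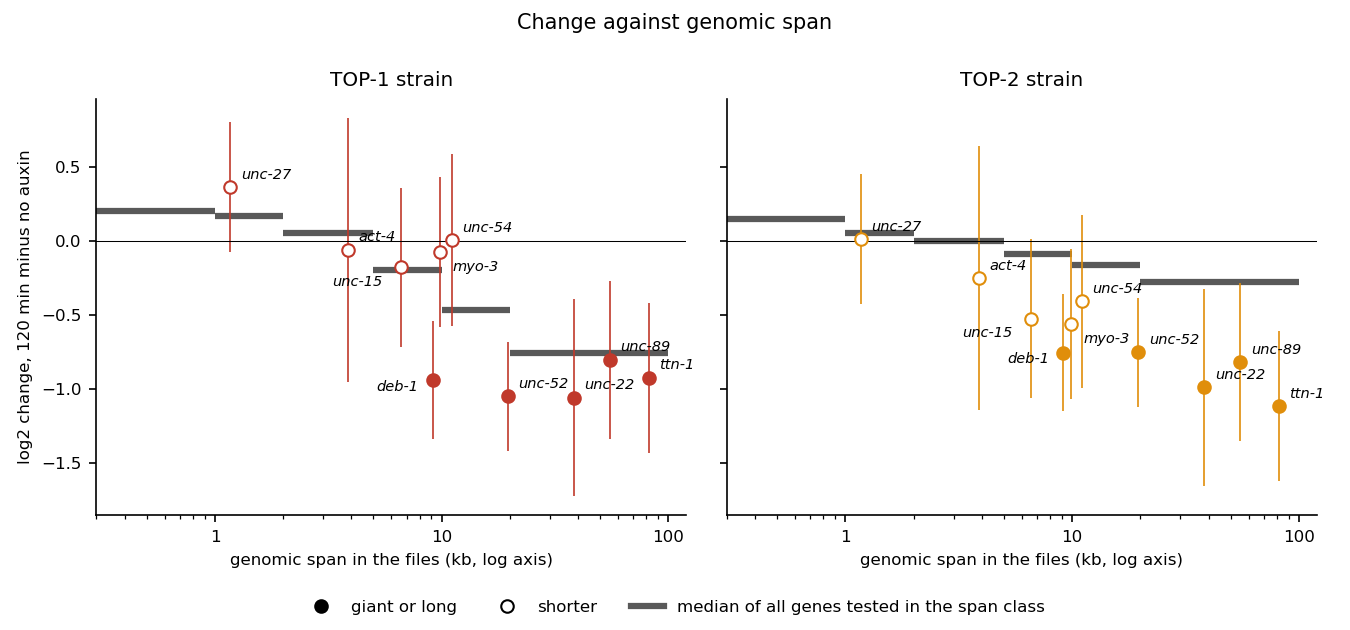
Log2 change between 120 min and no auxin (± SE of the limma fit) against genomic span in kb on a log axis, for the TOP-1 strain (left) and the TOP-2 strain (right). Filled points are giant or long genes, open points shorter genes, and grey bars the median of all genes tested in each span class. In TOP-1 the giant genes lie near the bar of their class (-0.76), and in TOP-2 they lie below it (-0.28).

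In the TOP-2 strain the giant or long genes were also lower at 120 min, with a median change of -0.82, against -0.41 for the shorter genes and 0.00 for all genes tested. No member passed with the block or without it, and limma called 0% of genes either way, while 235 genes had an unadjusted p under 0.05 without the block. At 30 and 60 min no member passed either. Without the block 0% of genes were called at both times, with 205 and 187 at an unadjusted p under 0.05, and with it 0.021% and 0.00701%. The level of unc-22 was 30.9 and 25.4 scaled TPM without auxin, 34.9 and 27.2 after 30 min, 27.4 and 10.1 after 60 min, and 13.9 and 13.3 after 120 min. The level of ttn-1 was 6.76 and 8.69, then 12.3 and 6.53, 6.91 and 2.67, and 3.05 and 2.93 scaled TPM.

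Neither giant gene was lower at 30 min in both series, and the decline came earlier in replicate 2. The 120 min changes were -0.99 ± 0.67 for unc-22 and -1.12 ± 0.51 for ttn-1 (limma adjusted p = 1 for both, and 0.393 and 0.309 with the block). At 120 min unc-89 stood at 12.02 and 16.9 scaled TPM, against 22.8 and 29.6 without auxin, and deb-1 at 54.9 and 58.8, against 78.4 and 119.1. For unc-52 the values were 28.1 and 41.6, against 40.4 and 84.4, so the groups overlapped. The changes were -0.82, -0.76 and -0.76 for unc-89, deb-1 and unc-52. Within replicate 1, the series that stood apart, the changes of unc-22, ttn-1, unc-89, unc-52 and deb-1 were -1.10, -0.94, -0.87, -0.51 and -0.51. Within replicate 2 they were -0.88, -1.30, -0.77, -1.004 and -1.007, so both series were below 0 for all 5.

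The shorter genes of the TOP-2 strain differed among themselves. At 120 min unc-54 stood at 333 and 893 scaled TPM, against 529 and 995 without auxin, myo-3 at 33.6 and 67.7, against 56.0 and 90.0, and unc-15 at 326 and 677, against 470.0 and 976. These 3 thick-filament genes were lower within both series, with changes of -0.41, -0.56 and -0.53, but the groups overlapped because the 2 series lay at different levels. By contrast unc-27 was at 649 and 915, against 592 and 989 (0.01), and act-4 at 613 and 2314, against 637 and 3168 (-0.25). None of the 5 passed.

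Relative to other genes the giant members stood lower in the TOP-2 strain than in the TOP-1 strain. Only 0.413% of all genes tested had a more negative 120 min change than ttn-1 in TOP-2, 0.624% than unc-22 and 1.07% than unc-89, and no gene over 20 kb was below ttn-1. In TOP-1 the corresponding shares were 7.15%, 5.37% and 9.57%. The genes that these shares refer to changed less in TOP-2. Genes over 20 kb had a median of -0.28 there and -0.76 in TOP-1. The limma fit gave 235 and 1976 genes an unadjusted p under 0.05. A lower share is thus not a larger change of the member. The TOP-1 minus TOP-2 difference at 120 min was -0.07 ± 0.94 for unc-22, 0.19 ± 0.72 for ttn-1, 0.02 ± 0.75 for unc-89, -0.30 ± 0.52 for unc-52 and -0.19 ± 0.56 for deb-1. For the shorter genes it ran between 0.19 and 0.48. None passed (0% of genes called, with 452 at an unadjusted p under 0.05), and SEs of 0.52 to 0.94 for the giant or long genes mean that sizeable differences either way would not have been detectable.

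In CA1200 the giant genes of the sarcomere had small fitted 120 min changes of either sign, which were imprecise. At 120 min unc-22 stood at 5.30 and 18.4 scaled TPM, against 6.38 and 12.2 without auxin, ttn-1 at 1.41 and 3.56, against 1.54 and 3.47, and unc-89 at 10.0 and 20.8, against 9.02 and 18.1. The groups overlapped for all 3, with changes of 0.16, -0.02 and 0.16. SEs of the 5 giant or long genes ran from 0.37 to 0.67. Over the alternative runs the change ran from -0.65 to 0.98 for unc-22. It ran from -0.48 to 0.44 for ttn-1 and from -0.33 to 0.65 for unc-89. The attachment genes were lower within both series, unc-52 at 38.9 and 43.6, against 48.9 and 80.2 (-0.59 ± 0.37), and deb-1 at 44.8 and 80.8, against 55.3 and 103 (-0.32 ± 0.40).

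Thick-filament genes were higher at 120 min in both CA1200 series. The myosin unc-54 stood at 511 and 813 scaled TPM, against 259.9 and 625 without auxin (0.68 ± 0.58), myo-3 at 38.2 and 79.5, against 25.3 and 63.98 (0.44), and unc-15 at 399.9 and 658, against 243 and 568 (0.46). The first library without auxin was the lowest of the 27 for all 3. The troponin and actin genes stood at 569.7 and 641 scaled TPM, against 445 and 748 (unc-27), and at 1537 and 1918, against 1369 and 2746 (act-4). No member passed in CA1200 at 120 min without the block (0.00701% of genes called) or with it (2.24%), nor without it at 30 or 60 min (0% of genes, with 424 and 553 at an unadjusted p under 0.05).

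At the earlier times the CA1200 series went apart. At 30 min unc-22 was at 3.03 scaled TPM in replicate 1 and 21.1 in replicate 2, and unc-89 at 5.48 and 24.9, while without auxin they were at 6.38 and 12.2, and at 9.02 and 18.1. The library at 60 min, which continues replicate 1, had 4.13 for unc-22 and 28.4 for unc-52. Against the mean of both libraries without auxin, its fitted changes for the 5 giant or long genes lay between -1.11 and -0.31, with a median of -0.73. Against replicate 1 alone they were -0.52 for unc-22, 0.10 for ttn-1, -0.26 for unc-89, -0.76 for unc-52 and -0.28 for deb-1, a median of -0.28, so ttn-1 had the other sign there. With the block ttn-1 was at 0.19 and the others lay between -0.82 and -0.08.

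In the DPY-27 strain all 10 members had 120 min changes below 0, between -0.65 for unc-52 and -0.03 for unc-15. Levels of unc-52 were 34.9 and 40.4 scaled TPM after 120 min, against 47.4 and 75.1 without auxin, and of unc-22 30.2 and 17.2, against 39.0 and 16.5. The medians were -0.27 for the giant or long genes and -0.09 for the shorter ones, and no member passed without the block (0.0491% of genes called) or with it (0.126%). The basement membrane gene unc-52 was thus lower within both series of all 4 strains, by -1.05, -0.76, -0.65 and -0.59 in TOP-1, TOP-2, DPY-27 and CA1200.

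The test of the TOP-1 change beyond the CA1200 change found no member that differed at any time. At 120 min this difference was -1.23 ± 0.94 for unc-22, -0.91 ± 0.72 for ttn-1, -0.97 ± 0.75 for unc-89, -0.46 ± 0.52 for unc-52 and -0.62 ± 0.56 for deb-1 (limma adjusted p = 1 for all 5, where 0% of genes were called and 463 had an unadjusted p under 0.05). With the block the smallest limma adjusted p over the members was 0.235, where 1.75% of genes were called. The shorter genes unc-54, myo-3 and unc-15 had differences of -0.67, -0.52 and -0.64, and unc-27 and act-4 of 0.30 and 0.11. The median for the giant or long genes was -0.91 and for the shorter genes -0.52, against 0.04 for all genes tested. At the earlier times the classes did not stand in that order. At 30 min the TOP-1 minus CA1200 medians were -0.32 for the giant or long genes and -0.63 for the shorter ones, and at 60 min, with 1 control library, 0.18 and 0.21 (0% of genes called at both times, with 81 and 107 at an unadjusted p under 0.05). The TOP-2 minus CA1200 difference at 120 min had medians of -0.98 and -0.99, so the class medians were nearly equal there, and no member passed (0% of genes called, with 108 at an unadjusted p under 0.05). Both comparisons share the CA1200 libraries.

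Without auxin the fitted levels of unc-22, ttn-1 and unc-89 were higher in the other strains than in CA1200, but no member passed limma. In the TOP-1 strain unc-22 stood at 30.8 and 22.2 scaled TPM, against 6.38 and 12.2 in CA1200, and ttn-1 at 9.57 and 5.86, against 1.54 and 3.47. The groups did not overlap, and the differences were 1.46 ± 0.67 and 1.34 ± 0.51, with 1.34 for unc-89, 0.88 for unc-52 and 0.65 for deb-1 (limma adjusted p = 1 for all 5, where 0% of genes were called and 440 had an unadjusted p under 0.05). After 120 min of auxin the TOP-1 levels of unc-22, 11.9 and 12.1, lay within the CA1200 range without auxin. In the TOP-2 strain the differences from CA1200 were 1.56 for unc-22, 1.36 for ttn-1 and 0.97 for unc-89 but -0.10 for unc-52, and in DPY-27 they were 1.92, 1.51, 1.21 and -0.28. None passed, where 0% of genes were called in TOP-2 (896 at an unadjusted p under 0.05) and 0.476% in DPY-27. The stage term of the fit takes up the level of the mixed-stage replicate 2, so the DPY-27 values rest on replicate 1, the series that stood apart. Taken alone against the CA1200 mean, replicate 2 had differences of 0.83 for unc-22, 0.92 for ttn-1, 0.64 for unc-89 and 0.26 for unc-52, and replicate 1 of 2.02, 1.69, 1.23 and -0.40. The sign of unc-52 thus differed between the series.

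The authors' deposited tables for TOP-1 and TOP-2 at 120 min over no auxin gave negative values for all 5 giant or long genes, as did the limma fit. For TOP-1 at 120 min over no auxin, the authors' deposited table lists log2 fold changes of -1.18 for unc-22, -1.16 for ttn-1, -1.32 for unc-89, -1.12 for unc-52 and -0.94 for deb-1. Their adjusted p-values in the authors' deposited table were 0.115, 0.449, 0.114, 0.159 and 0.412. For TOP-2 at 120 min over no auxin the authors' deposited table lists -1.06, -1.68, -1.06, -0.86 and -0.80 for the same genes, each with an adjusted p of 1.00. Of the 10 members in the 16 tables, 1 value passed an adjusted p of 0.05: ttn-1 was higher in DPY-27 than in CA1200 without auxin in the authors' deposited table (2.12, adjusted p = 0.00864).

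A further 49 genes of the body wall muscle were tested, out of 50 listed, with hnd-1 too low to test. In the TOP-1 strain at 120 min 2 of them fell and 1 rose, beside the 1.94% of all genes that were called, and the median change was -0.37. Those that fell were slo-1, a calcium-activated potassium channel (-1.90 ± 0.42, limma adjusted p = 0.0334), and unc-45, the chaperone that folds myosin (-1.24 ± 0.27, limma adjusted p = 0.0341). The one that rose was unc-120, a muscle transcription factor of the SRF family (1.07 ± 0.25, limma adjusted p = 0.0408). At 60 min slo-1 alone of the list passed (-2.07, limma adjusted p = 0.0492), where 0.603% of all genes were called. The list had 1 further call without the block, unc-96, an M-line gene that was higher in DPY-27 than in CA1200 without auxin (1.48 ± 0.29, limma adjusted p = 0.0449, where 0.476% of genes were called). With the block 13 genes of the list fell and 3 rose in TOP-1 at 120 min, beside 11.5% of all genes called lower and 11.4% called higher. The 3 lower genes with the smallest limma adjusted p there were slo-1 (0.000105), unc-45 (0.000274) and tln-1, the talin gene (-1.07, 0.000595), and the 3 higher ones were unc-120 (0.00282), tni-3, a troponin I gene (0.70, 0.0228), and unc-98, an M-line gene (0.70, 0.0446). At 60 min 9 genes of the list were lower with the block, beside 8.07% of all genes, and at 30 min 2, slo-1 and lim-9 (-1.54 and -0.71, limma adjusted p = 0.00466 and 0.0393), beside 4.89% of all genes called in either direction. The TOP-1 minus CA1200 difference of the 120 min change was -1.86 ± 0.59 for slo-1, -1.13 ± 0.58 for tln-1, -0.98 ± 0.39 for unc-45 and 0.62 ± 0.35 for unc-120. The limma adjusted p was 1 for each, or 0.0105, 0.0243, 0.045 and 0.342 with the block, where 1.75% of all genes were called. With the block slo-1 (-1.55) and unc-45 (-1.20) also passed in the TOP-1 minus TOP-2 difference at 120 min, both with limma adjusted p = 0.0231.

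By role, the 16 thin-filament genes had a median TOP-1 change of -0.05 at 120 min, with 10 of 16 below 0. The 20 dense-body, M-line and attachment genes had a median of -0.49, with 14 of 20 below 0. All 7 genes of the membrane, calcium and dystrophin group were below 0, with a median of -0.49, among them dys-1, the dystrophin gene (-0.94 ± 0.40), and unc-68, the ryanodine receptor gene (-0.94 ± 0.52), neither of which passed without the block. Split by span, the 19 list genes among the 1428 longest had a median of -0.49 and the other 30 a median of -0.06, against -0.41 for all 1428 longest genes and 0.08 for the remaining 12843. At 120 min in TOP-2, 14 of 16 thin-filament, 16 of 20 dense-body and 6 of 7 membrane group genes were below 0. In the same order 11, 13 and 2 were below 0 in CA1200, and 11, 15 and 5 in DPY-27. The 19 long and 30 other list genes had medians of -0.37 and -0.21 in TOP-2 and of 0.06 and -0.21 in CA1200. In DPY-27 these medians were -0.04 and -0.18.

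Some short genes of the dense-body, M-line and attachment group, chosen after their values were seen, were among the lowest values too. The 20 genes of that group ran from -2.76 to 0.70 in TOP-1. The attachment gene unc-95 (3378 bp) had a change of -1.25 ± 0.63 in the TOP-1 strain (limma adjusted p = 0.425, or 0.00255 with the block) and of -0.21 in CA1200. The integrin-linked kinase gene pat-4 (5360 bp) had a change of -0.92 ± 0.62 (limma adjusted p = 0.606, or 0.00476 with the block). Neither unc-95 nor pat-4 passed in the TOP-1 minus CA1200 difference at 120 min, with the block (1.75% of genes called) or without it (0%). The lowest value on the list, unc-23 (3595 bp), a gene for a BAG-domain co-chaperone, was -2.76 ± 1.01 in TOP-1 and nearly as low in CA1200, -2.71 ± 1.01. In TOP-2, DPY-27 and CA1200 at 120 min no gene of the list passed with the block or without it, and the list medians were -0.26, -0.15 and -0.04.

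**Figure D5:**
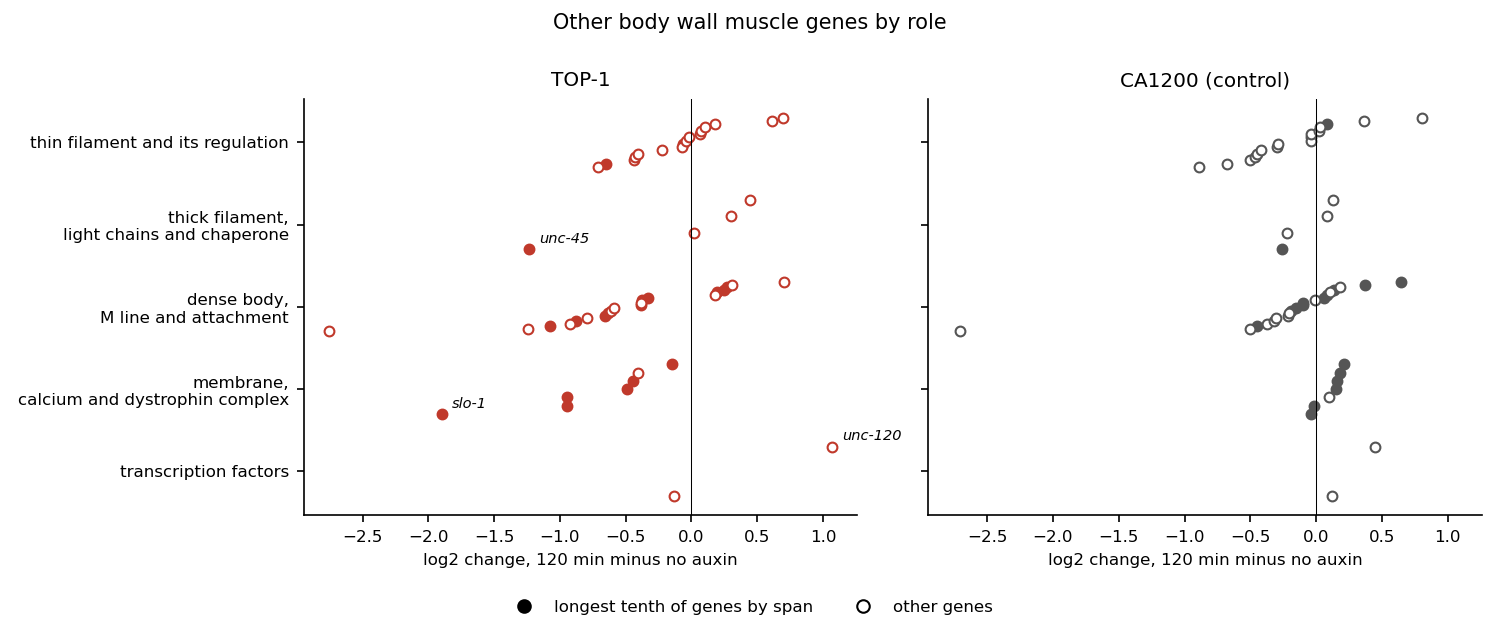
Log2 change between 120 min and no auxin of the 49 further muscle genes in the TOP-1 strain (left) and CA1200 (right), 1 point per gene, by role; filled points are among the 1428 longest genes tested and open points are not. In TOP-1 slo-1, unc-45 and unc-120, the genes that passed, are named, and the lowest open point in both panels is unc-23.

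Over the 27 libraries the levels of the giant or long genes had a median Pearson correlation of 0.73 over their 10 pairs (0.42 to 0.92). The shorter genes had 0.71 over 10 pairs (0.47 to 0.97), and the 25 pairs between the classes 0.48 (-0.16 to 0.76). The ranges overlapped, with deb-1 and myo-3 the highest pair between the classes. These are descriptions over libraries that share strains and series. Among 6334 genes with a mean of at least 10 scaled TPM, the profiles over the 14 groups, each strain centred on its own mean, most like that of the giant or long genes were hbs-1 (r = 0.98), Y43F8B.1 (0.97), prp-39 (0.96), Y73E7A.8 (0.95) and epi-1 (0.95), the laminin alpha chain of the basement membrane. Of these hbs-1 and prp-39 span 3302 and 4037 bp. Most like the shorter genes were T23E7.2 (r = 0.95), emb-9 (0.92), a type IV collagen chain, sca-1 (0.92), the calcium pump of the sarcoplasmic reticulum, mig-6 (0.92), which encodes papilin, and lev-11 (0.91), tropomyosin. Of those 5, T23E7.2, sca-1, mig-6 and lev-11 are among the 1428 longest genes. With the giant or long profile the shorter genes had r = 0.73 (act-4), 0.64 (myo-3), 0.58 (unc-15), 0.36 (unc-54) and -0.13 (unc-27).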

How the data were processed

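Poly(A) RNA was made into stranded libraries, per the labels' protocols. Per the file headers, the deposited library files give FPKM and TPM for each gene. The deposited comparison tables of the authors give a mean normalized count signal (baseMean), a log2 fold change, its standard error and a test score, and a p-value with its adjusted p-value. Tools listed, without roles, in the submitters' processing notes are HISAT2 2.2.1 and Cufflinks 2.2.1, DESeq2 1.30.0 and HTSeq 0.13.5, and CASAVA 1.8. TPM was used for the tests; FPKM served only to estimate depth, from the step that a single fragment makes in genes with 1 annotated transcript.

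TPM was scaled by median ratios (12832 genes), and log2 with a pseudocount of 1 was taken, which understates changes of low genes. Testing needed a TPM of 1 or more in 2 or more libraries and used limma 3.58.1 (R 4.3.3): a mean for each strain and time and a mixed-stage term, over all 27 libraries, with 12 residual degrees of freedom and Benjamini-Hochberg adjustment over all genes tested. The single CA1200 library at 60 min is assumed to vary like the other groups. The study design states biological replicates. Same-numbered libraries deviated together within a strain (correlations of 0.38 to 0.90 over 16 pairs of times), so values with the replicate number as a block are given where they alter a call. All 10 members are named; genes of the further muscle list that passed without the block are named where 5 or fewer did, otherwise the 3 with the smallest adjusted p in each direction, and other genes singled out were chosen after their values were seen. The fit was tested on simulated data with independent noise in each library. That test does not cover the shared deviations of same-numbered libraries. Members and lists were chosen with earlier results of these data known.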

Additional observations from a re-analysis of the deposited data

How the results depend on the processing

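Without a block no member was called under any alternative run. With the replicate block 4 members passed in TOP-1 at 120 min and 2 at 60 min, and it changed no other member's call. Genes called lower and higher in TOP-1 at 120 min numbered 159 and 118, against 1647 and 1632 with the replicate block, 7 and 2 with TPM as deposited, and 339 and 290 without the 6 libraries that stood apart, an alternative chosen after seeing the data. Leaving out 1 library at a time gave 8 to 67 lower and 5 to 43 higher, with the low ends reached without replicate 1 at 120 min and without replicate 2 at no auxin. The causes were not tested.

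Splitting the members by their span in the files, at the 1428 longest genes, gave CA1200 medians at 120 min of 0.16 for the long genes and 0.068 for the others, a difference of 0.094, against -0.46 by the classes used above, and a TOP-2 median of -0.25 for the others. Without the X-linked members, chosen after seeing the data, the TOP-2 median of the shorter genes was -0.53. The TOP-1 difference between the classes was -1.01 with a pseudocount of 0.1, against -0.88. A pseudocount of 5 gave medians for the giant or long genes of -0.70 in TOP-2 and -0.19 in DPY-27, and a DPY-27 class difference of -0.10.

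Leaving out 1 library at a time, the medians of the giant or long and of the shorter genes ranged from -1.24 to -0.62 and from -0.37 to 0.25 in TOP-1, from -1.06 to -0.64 and from -1.06 to 0.26 in TOP-2, from -0.41 to -0.30 and from -0.29 to -0.078 in DPY-27, and from -0.65 to 0.44 and from -0.21 to 1.08 in CA1200. The class difference ranged from -0.92 to -0.81 in TOP-1 and from -0.97 to 0.025 in TOP-2, the high end without replicate 2 at 120 min. Both the number of libraries, 2 in nearly all groups, and the depth limit the precision, and the 2 were not compared.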
